A study of Mus musculus with 12 samples.

Results

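The genes described here are 41 enzymes, transporters and regulators of glucose metabolism in liver cells: the genes of glucose and fructose entry, glycolysis, lactate and pyruvate handling, the pyruvate dehydrogenase complex with its kinases and phosphatases, gluconeogenesis, and glycogen storage. They were taken by gene symbol from a list drawn up by function, with earlier results of these data known. The shares over all genes given below therefore describe the list and do not test it. All 41 were found among the 46983 genes of the count files. The libraries came from primary mouse hepatocytes, liver cells isolated and cultured directly after isolation. The mice carried the AEG-1-L24K/L25H change, made with CRISPR/Cas9 in the C57BL/6/J background, or were AEG-1-WT littermates from heterozygote matings. AEG-1, also called metadherin and encoded by Mtdh, is a protein studied in liver cancer and in fat metabolism. The 4 groups of 3 libraries were knock-in hepatocytes given CP775146 for 24 h, untreated knock-in hepatocytes, wild-type hepatocytes given CP775146 for 24 h, and untreated wild-type hepatocytes. The dose was 2.5 µM, with the unit as read from a symbol in the labels. CP775146 is an agonist of PPAR-alpha, the nuclear receptor that turns on fatty acid oxidation genes in liver. The age of the donors, the number of animals behind a library and the vehicle, if any, are not given in the sources used here. The p-values therefore measure the spread between libraries, which may be technical.

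In hepatocytes, glucose crosses the membrane through GLUT2 and is trapped by phosphorylation, after which glycolysis breaks it down to pyruvate. Gluconeogenesis runs the opposite way in fasting, using its own enzymes at the steps that glycolysis cannot reverse, and ends with the release of free glucose. Pyruvate enters mitochondria through the pyruvate carrier, where the pyruvate dehydrogenase complex commits it to acetyl-CoA; the kinases Pdk1 to Pdk4 switch this complex off and the phosphatases Pdp1 and Pdp2 switch it on. Pdk4 and the gluconeogenic genes are among the genes that fasting raises in liver.

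Levels are CPM, counts scaled to a common library total after the trimmed mean of M-values (TMM) adjustment between libraries. Levels of different genes are compared as RPKM, which also divides by exonic length. Differences were tested with edgeR's quasi-likelihood test over all 15664 genes with enough counts, with Benjamini-Hochberg adjusted p under 0.05 as the threshold, and each error on a log2 difference is a standard error. Of the 41 genes 40 were tested. Ldhb, the heart-type lactate dehydrogenase subunit gene, was too low to be tested, at 0 to 0.410 CPM in the 12 libraries, where 3 counts correspond to at most 0.111 CPM.

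The libraries held 26956032 to 34885451 counts each. Mtdh, whose coding sequence was changed, was at 173 ± 1.98 CPM in untreated knock-in and 166 ± 8.47 CPM in untreated wild-type cells (SD, n = 3 each; adjusted p = 0.262), and a gene count cannot show the amino acid change. Ppara itself gave 93.8 ± 3.57 CPM in treated and 73.3 ± 2.32 CPM in untreated knock-in hepatocytes, and 127 ± 8.33 CPM in treated and 87.6 ± 1.17 CPM in untreated wild-type hepatocytes. Hepatocyte markers were strongly present: 8 of them summed to 79200 to 81540 CPM in treated and 85460 to 90040 CPM in untreated knock-in libraries, and to 121000 to 127100 CPM in treated and 119100 to 121700 CPM in untreated wild-type libraries. Alb made up most of that sum. Of the 8 hepatocyte markers, 5 were lower and 2 higher in the knock-in with CP775146, and 4 lower and 1 higher without. With CP775146, 6 fell and none rose in knock-in cells, and 5 fell and 1 rose in wild-type cells. Of all tested genes, 22.0% were lower and 20.5% higher in the knock-in with CP775146, and 18.6% lower and 18.4% higher without. CP775146 lowered 19.1% and raised 18.1% of all genes in knock-in cells, and lowered 22.3% and raised 22.7% in wild-type cells. The macrophage and endothelial counts below stand beside the same shares. Macrophage markers (8) summed to 107 to 121 CPM in treated and 153 to 162 CPM in untreated knock-in libraries, and to 185 to 190 CPM in treated and 212 to 253 CPM in untreated wild-type libraries. Nearly all of that sum was Cd68; of the 7 macrophage markers tested, 3 were higher and 1 lower in the knock-in with CP775146, and 2 higher and 1 lower without. Endothelial markers (8) summed to 34.7 to 40.0 CPM in treated and 46.3 to 51.9 CPM in untreated knock-in libraries, and to 66.1 to 68.5 CPM in treated and 76.2 to 87.6 CPM in untreated wild-type libraries. Stab2 made up most of that sum; of the 6 endothelial markers tested, 2 were lower and none higher in the knock-in, in each condition. Cholangiocyte markers (6) summed to 48.3 to 52.5 CPM in treated and 40.8 to 43.4 CPM in untreated knock-in libraries, and to 32.8 to 33.8 CPM in treated and 15.1 to 18.0 CPM in untreated wild-type libraries. Over the 12 libraries, stellate cell and fibroblast markers (8) summed to 5.40 to 10.6 CPM, erythroid markers (6, with Hba-a2, Hbb-bt and Slc4a1 at 0) to 1.80 to 4.15 CPM, and neutrophil and lymphocyte markers (7, with Ms4a1 at 0) to at most 0.272 CPM. Several of the 41 genes, Slc2a1, Hk1, Hk2 and Pfkp among them, are also used by macrophages and endothelium, and the part of those cells in the results below was not tested. In whole cultures, fewer cells of a type and less RNA per cell cannot be told apart.

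Promoters are shown for the genes with the largest responses, since CP775146 acts on a receptor that binds DNA. They are the 250 bases before the gene start in the RefSeq annotation of GRCm38.p6, read 5′ to 3′ on the strand of the gene; for Pdk4, G6pc and Ppp1r3c that start differs from the one in the count files. Pdk4, G6pc and Fbp1 had the largest rises in wild-type cells, and Ppp1r3c and Slc2a2 the largest falls in both genotypes. Capitals mark the half-site AGGTCA or its reverse complement TGACCT, the letters that nuclear receptors such as PPAR-alpha read as a pair, or the E-box CACGTG, a palindrome read by factors such as USF and ChREBP.
Pdk4, chr6:5496279-5496528, minus strand: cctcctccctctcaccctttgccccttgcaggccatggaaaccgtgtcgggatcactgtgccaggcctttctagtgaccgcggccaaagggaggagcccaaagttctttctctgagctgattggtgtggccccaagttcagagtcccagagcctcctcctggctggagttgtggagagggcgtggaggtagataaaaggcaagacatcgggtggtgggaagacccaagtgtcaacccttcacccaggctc
G6pc, chr11:101367466-101367715, plus strand: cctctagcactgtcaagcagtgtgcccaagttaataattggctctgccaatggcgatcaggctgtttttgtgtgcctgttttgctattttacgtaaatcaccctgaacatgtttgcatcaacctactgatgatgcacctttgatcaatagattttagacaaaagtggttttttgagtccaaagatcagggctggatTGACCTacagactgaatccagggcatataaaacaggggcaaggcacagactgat
Fbp1, chr13:62888283-62888532, minus strand: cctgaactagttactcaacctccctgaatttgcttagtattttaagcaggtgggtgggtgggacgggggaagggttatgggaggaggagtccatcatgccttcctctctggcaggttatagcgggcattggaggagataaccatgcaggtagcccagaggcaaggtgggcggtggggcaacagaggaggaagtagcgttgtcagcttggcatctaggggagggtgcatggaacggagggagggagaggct
Ppp1r3c, chr19:36736605-36736854, minus strand: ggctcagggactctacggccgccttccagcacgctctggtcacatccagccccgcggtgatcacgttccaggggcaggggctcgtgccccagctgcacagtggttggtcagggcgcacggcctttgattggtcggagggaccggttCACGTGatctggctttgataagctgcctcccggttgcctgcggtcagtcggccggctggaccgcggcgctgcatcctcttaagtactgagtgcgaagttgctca
Slc2a2, chr3:28697653-28697902, plus strand: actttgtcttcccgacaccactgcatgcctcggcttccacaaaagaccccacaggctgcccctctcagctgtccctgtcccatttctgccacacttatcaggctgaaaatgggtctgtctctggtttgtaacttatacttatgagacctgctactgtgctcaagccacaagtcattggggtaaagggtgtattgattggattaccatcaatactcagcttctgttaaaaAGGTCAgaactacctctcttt
G6pc carried the half-site on the opposite strand and Slc2a2 on its own strand, Ppp1r3c carried the E-box, and the windows of Pdk4 and Fbp1 held neither word. RefSeq windows were found for 38 of the 41 genes, 55 windows in all. The half-site on either strand occurred in 12 of those 55 and in 14.0% of all 32851 windows, and the E-box in 7 of 55 and in 6.02% of all. The paired form, AGGTCA repeated after 1 base with up to 2 letters changed, on either strand, occurred in 2 of 55 windows, of Ldhb and Slc37a4, and in 3.24% of all. A pair that keeps an unchanged AGGTCA is counted under both. These matches describe the letters in the windows only.

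CP775146 moved most of the glucose genes, mostly upwards. In knock-in hepatocytes 24 of 40 were higher, 6 lower and 10 did not pass the test, against 18.1% of all tested genes higher and 19.1% lower (37.2% in either direction). In wild-type hepatocytes the counts were also 24 higher, 6 lower and 10 not called, with 22.7% of all genes higher and 22.3% lower (45.0% in either direction). The median log2 difference over the 40 was 0.23 in knock-in and 0.25 in wild-type cells, where the median of all genes was −0.01 in each. With total counts in place of TMM the split became 22 higher and 9 lower in knock-in cells, beside 2066 and 4352 of all genes, and 21 higher and 7 lower in wild-type cells, beside 2358 and 5338 of all genes.

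The 2 responses share no library, and over the 40 genes their log2 differences had a Pearson r of 0.965 (0.927 without Pdk4, and 0.803 over all 15664 genes, which are not independent replicates). Of the 40, 27 passed the test in both genotypes, 21 of them higher and 6 lower in both. Over all genes 4454 passed in both, 2218 higher and 2194 lower in both, so that 4412 of 4454 had the same direction, and the shared direction is not particular to the 27. The 6 that fell in both were Slc2a2, Khk, Pfkfb1, Slc37a4, Ppp1r3b and Ppp1r3c. Neither response passed the test for Pfkfb3, Pck1, Pgk1, Pklr, Pdp1, Pdk2 and Mpc1.

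**Figure D1:**
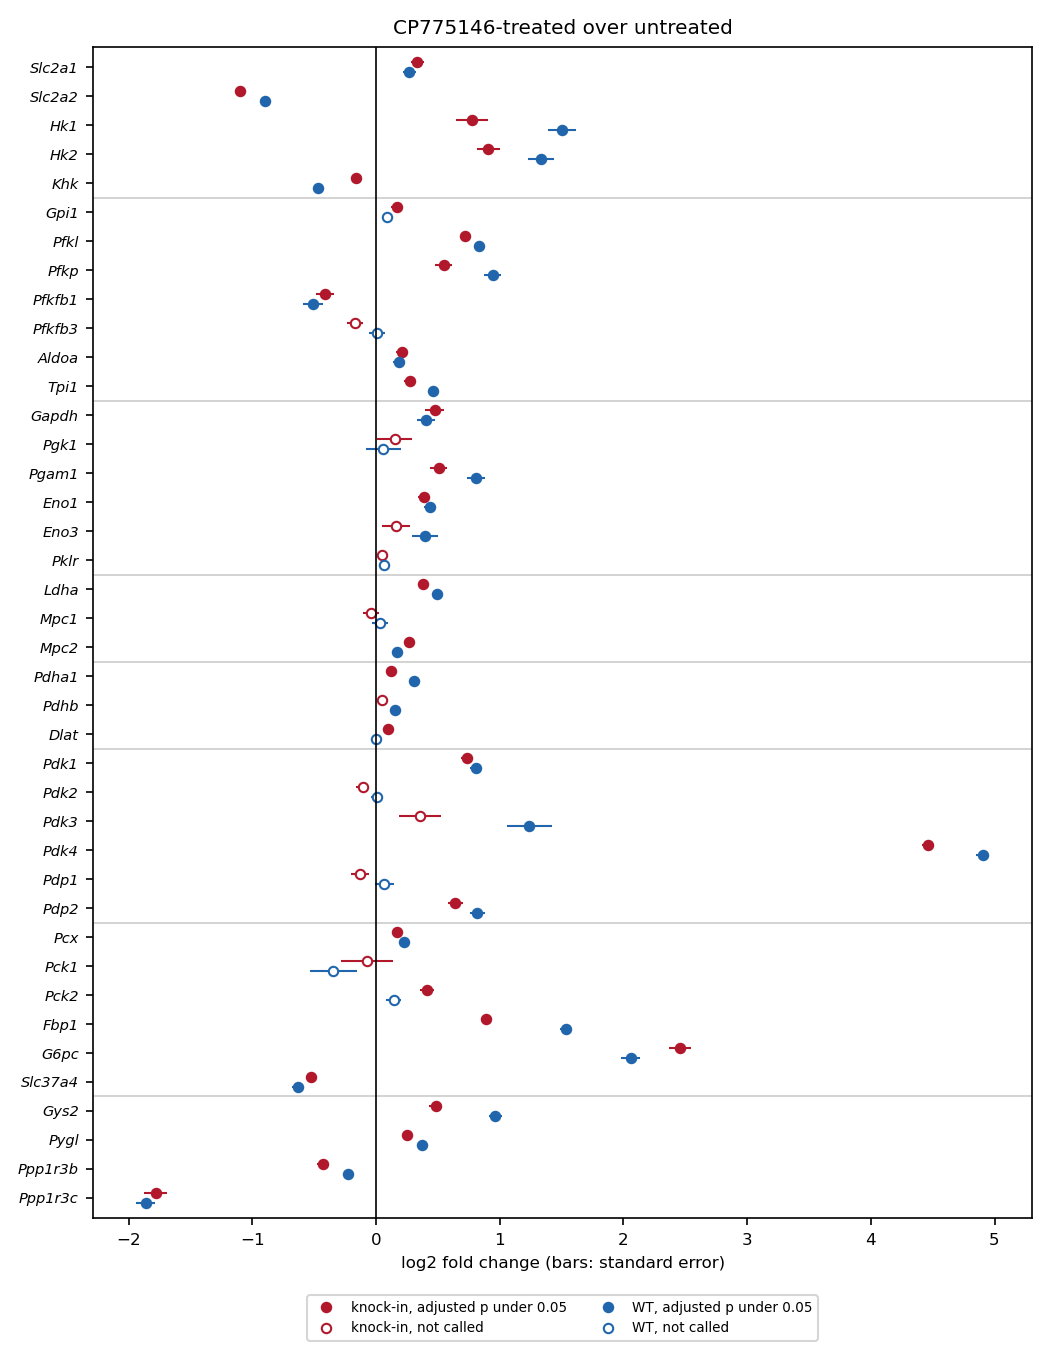
Log2 difference (horizontal axis, bars are standard errors) of CP775146-treated over untreated hepatocytes for the 40 tested genes, in knock-in (red) and wild-type cells (blue), with 3 libraries a group; filled points passed an adjusted p of 0.05 and grey lines separate the functional groups. Pdk4 stands alone at 4.46 in knock-in and 4.91 in wild-type cells, and the red and blue points lie on the same side of 0 wherever both are filled.

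Most of the 40 genes were lower in the knock-in. In untreated hepatocytes 25 of the 40 were lower in knock-in than in wild-type cells, 5 higher and 10 not called, while 18.4% of all tested genes were higher and 18.6% lower (37.0% in either direction). With CP775146, 27 were lower, 5 higher and 8 not called, beside 20.5% of all genes higher and 22.0% lower (42.5% in either direction). The median over the 40 was −0.28 without and −0.35 with CP775146, against −0.004 and −0.01 over all genes. With total counts in place of TMM the split was 10 higher and 23 lower in untreated cells, beside 5024 and 1722 of all genes. In treated cells it was 7 higher and 22 lower, beside 5950 and 1867 of all genes. That scaling put the median of all genes at 0.10 in untreated and 0.12 in treated cells.

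Between the untreated and the treated comparison, which share no library, the log2 differences of the 40 genes had a Pearson r of 0.797 (0.744 over all genes). In 24 of the 40 genes both comparisons passed the test, 22 lower and 2 higher in the knock-in, and the 2 higher were Hk2 and Pfkfb1. Over all 15664 genes both passed in 4252, 2113 of them lower and 2051 higher in both. Pklr and Pdp2 passed neither.

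**Figure D2:**
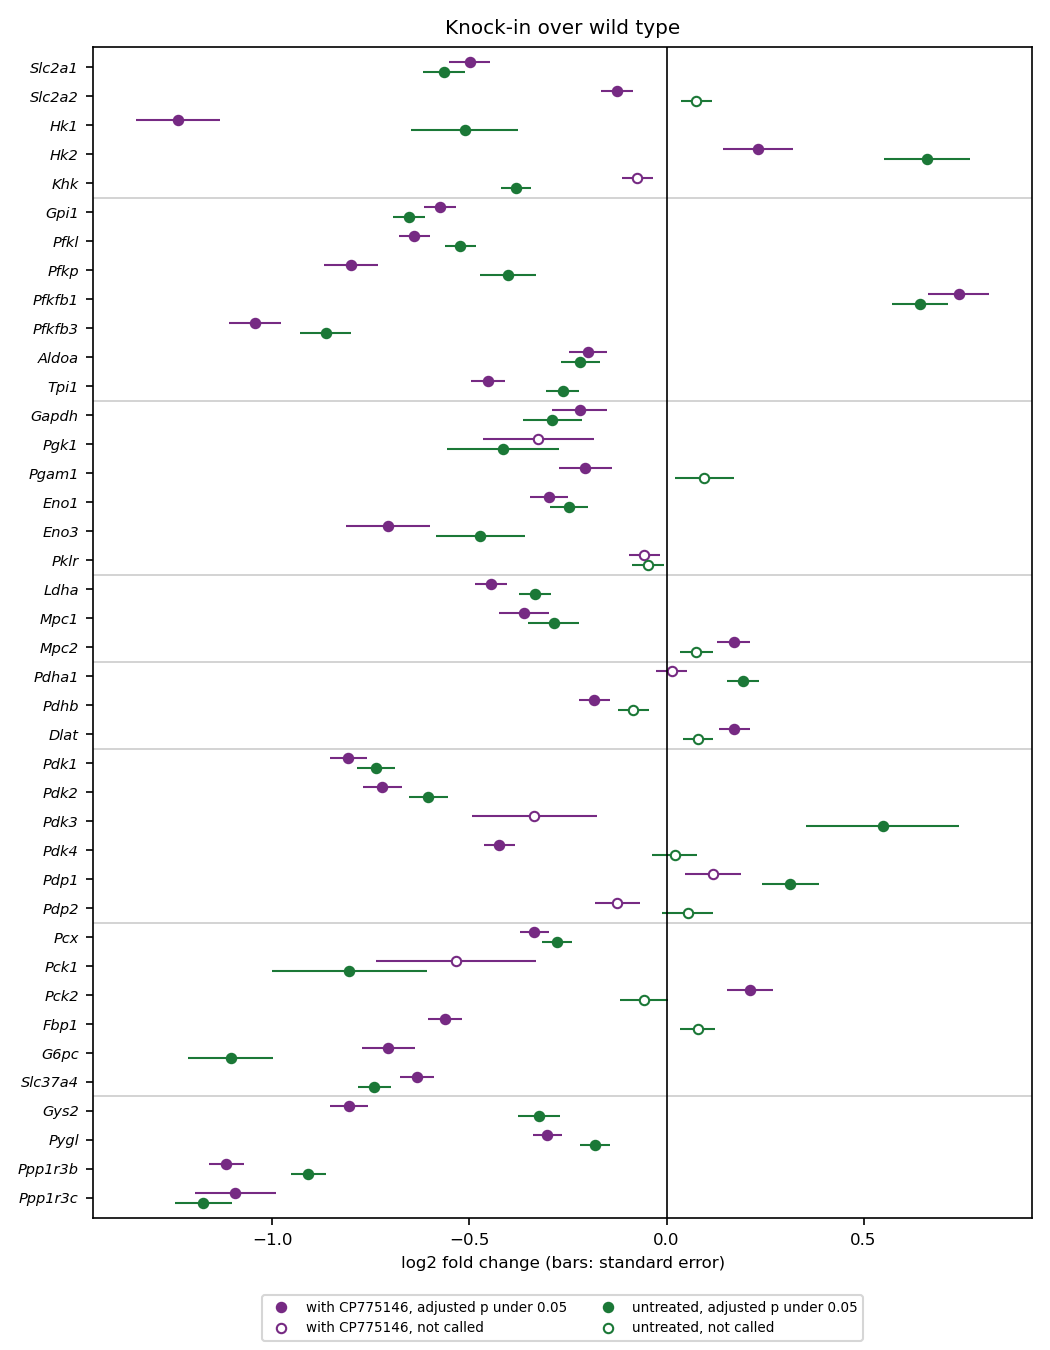
Log2 difference (horizontal axis, bars are standard errors) of knock-in over wild-type hepatocytes for the 40 tested genes, with CP775146 (purple) and untreated (green), with 3 libraries a group; filled points passed an adjusted p of 0.05. Most points lie left of 0, the lowest being Hk1 with CP775146 at −1.24, and Hk2 and Pfkfb1 are filled on the right in both comparisons.

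At the entry of hexoses, CP775146 lowered the main glucose transporter of hepatocytes and the fructose kinase gene and raised the hexokinase genes of other tissues. Of the 5 genes, 3 rose and 2 fell with CP775146 in each genotype, and 3 were lower and 1 higher in the knock-in, in each condition. Of all genes, 18.1% rose and 19.1% fell in knock-in cells, and 22.7% rose and 22.3% fell in wild-type cells. In the knock-in, 22.0% of all genes were lower and 20.5% higher with CP775146, and 18.6% lower and 18.4% higher without. Slc2a2 gave 174, 190.2 and 179 CPM in treated and 389.7, 384 and 391 CPM in untreated knock-in libraries. Slc2a2 in wild-type libraries gave 190.0, 209.9 and 193 CPM with CP775146 and 379, 362 and 364 CPM untreated. Slc2a2, which encodes GLUT2 (ENSMUSG00000027690, chromosome 3, 28697903 to 28731359), was 2.14-fold lower with CP775146 in knock-in cells (log2 difference −1.10 ± 0.041, adjusted p = 1.70e-19) and 1.86-fold lower in wild-type cells (log2 difference −0.90 ± 0.041, adjusted p = 2.14e-17), with every treated library below every untreated one. Between the treated groups the libraries overlapped, and the knock-in difference (−0.12 ± 0.041, adjusted p = 0.0144) was 0.0116 with total counts in place of TMM. Khk gave 94.5, 98.3 and 94.6 CPM in treated and 108, 107 and 106 CPM in untreated knock-in libraries. Khk in wild-type libraries gave 103, 97.2 and 102 CPM with CP775146 and 137, 143 and 138 CPM untreated. Khk encodes ketohexokinase, which starts fructose breakdown, and its fall with CP775146 was smaller in the knock-in (−0.16 ± 0.038, adjusted p = 0.0013) than in wild-type cells (−0.47 ± 0.039, adjusted p = 2.28e-11). Untreated wild-type cells stood above the 3 other groups.

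Hk1 gave 5.24, 5.46 and 4.45 CPM in treated and 2.96, 2.50 and 3.33 CPM in untreated knock-in libraries. Hk1 in wild-type libraries gave 10.9, 13.4 and 11.4 CPM with CP775146 and 4.65, 3.98 and 3.94 CPM untreated. Hk1, the ubiquitous hexokinase, was highest in treated wild-type cells and its groups did not overlap in any of the 4 comparisons; it was 2.36-fold lower in knock-in than in wild-type cells under CP775146 (log2 difference −1.24 ± 0.106, adjusted p = 6.49e-11), and in untreated cells the log2 difference was −0.51 ± 0.136, adjusted p = 0.00332. Hk2 gave 28.6, 30.2 and 28.5 CPM in treated and 15.01, 16.4 and 15.1 CPM in untreated knock-in libraries. Hk2 in wild-type libraries gave 23.3, 29.2 and 21.8 CPM with CP775146 and 10.1, 11.01 and 8.34 CPM untreated. Hk2, the insulin-responsive hexokinase of muscle and fat, was 1.58-fold higher in untreated knock-in than in untreated wild-type cells (log2 difference 0.66 ± 0.109, adjusted p = 9.98e-05) and rose with CP775146 in both genotypes (0.91 in knock-in and 1.34 in wild-type cells). Under CP775146 the libraries of the genotypes overlapped, and that difference (0.23 ± 0.089, adjusted p = 0.0445) lost its call in 9 of 21 alternative analyses, with adjusted p-values of up to 0.156. Slc2a1, which encodes GLUT1, the transporter of most other cells, was lower in the knock-in without (−0.56 ± 0.053, adjusted p = 2.78e-09) and with CP775146 (−0.50 ± 0.052, adjusted p = 1.21e-08), and rose with the agonist by 0.33 in knock-in and 0.27 in wild-type cells.

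On the RPKM scale, Slc2a2 made up 55.7 to 56.6% of the summed Slc2a1 and Slc2a2 transcripts in treated and 77.1 to 78.2% in untreated knock-in libraries, and 49.4 to 49.9% in treated and 67.2 to 70.98% in untreated wild-type libraries. No groups overlapped, and each exact two-sided permutation test gave p = 0.1, the smallest that 3 libraries against 3 allow.

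In upper glycolysis the phosphofructokinase genes carried the largest rises with CP775146, and 6 of the 7 genes were lower in the knock-in, with and without the agonist. Of all genes, 22.0% were lower in the knock-in with CP775146 and 18.6% without. Pfkl, the liver phosphofructokinase that commits glucose to glycolysis, averaged 405 ± 5.33 CPM in treated and 246 ± 5.30 CPM in untreated knock-in hepatocytes, and 630.5 ± 21.6 CPM in treated and 354 ± 19.03 CPM in untreated wild-type hepatocytes (SD, n = 3 each). It was 1.64-fold higher with CP775146 in knock-in cells and 1.78-fold higher in wild-type cells, and 1.44-fold lower in untreated knock-in than in untreated wild-type cells (log2 difference −0.52 ± 0.040, adjusted p = 6.37e-12). Pfkp gave 165, 198 and 171 CPM in treated and 122, 126 and 118 CPM in untreated knock-in libraries. Pfkp in wild-type libraries gave 298, 329.7 and 302 CPM with CP775146 and 162, 173 and 148 CPM untreated. Pfkp, the platelet-type isoenzyme, reached its highest values in the treated wild-type libraries, which overlapped with no other group, and its rise with CP775146 was 0.55 in knock-in and 0.94 in wild-type cells.

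The bifunctional enzymes that make and remove the main activator of phosphofructokinase moved apart. Pfkfb1 gave 14.7, 14.2 and 15.7 CPM in treated and 21.2, 18.6 and 19.5 CPM in untreated knock-in libraries. Pfkfb1 in wild-type libraries gave 9.69, 8.58 and 8.33 CPM with CP775146 and 12.2, 13.6 and 12.1 CPM untreated. Pfkfb1, the liver isoenzyme, was higher in the knock-in without (0.64 ± 0.072, adjusted p = 2.12e-08) and with CP775146 (0.74 ± 0.078, adjusted p = 4.64e-09), and lower with the agonist in both genotypes (−0.41 in knock-in and −0.51 in wild-type cells). Pfkfb3 gave 37.6, 42.1 and 40.3 CPM in treated and 46.3, 42.9 and 46.01 CPM in untreated knock-in libraries. Pfkfb3 in wild-type libraries gave 75.9, 92.6 and 79.1 CPM with CP775146 and 83.8, 85.6 and 76.9 CPM untreated. Pfkfb3, the inducible isoenzyme with strong kinase activity, was 2.06-fold lower in knock-in than in wild-type cells under CP775146 and 1.82-fold lower in untreated cells, with no overlap between the genotypes. Its response to CP775146 did not pass the test in knock-in cells (−0.17 ± 0.067, adjusted p = 0.0508, 95% interval −0.30 to −0.04) and was 0.01 in wild-type cells (95% interval −0.12 to 0.13); in knock-in cells it passed in 12 of 20 alternative analyses.

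Tpi1 gave 1055, 1147 and 1114 CPM in treated and 941, 933 and 873 CPM in untreated knock-in libraries. Tpi1 in wild-type libraries gave 1493, 1469 and 1576 CPM with CP775146 and 1089, 1155 and 1051 CPM untreated. Tpi1, triose phosphate isomerase, had the highest RPKM of the upper glycolytic genes, and treated wild-type cells were above all other groups. Aldoa, the muscle-type aldolase, averaged 722 ± 4.66 CPM in treated and 625 ± 3.62 CPM in untreated knock-in hepatocytes, and 828 ± 33.1 CPM in treated and 728 ± 73.1 CPM in untreated wild-type hepatocytes. Gpi1, glucose-6-phosphate isomerase, averaged 508 ± 10.8 CPM in treated and 453 ± 4.69 CPM in untreated knock-in hepatocytes, and 757 ± 28.6 CPM in treated and 713 ± 45.5 CPM in untreated wild-type hepatocytes. Both were lower in the knock-in, Aldoa with log2 differences of −0.22 without and −0.20 with CP775146, and Gpi1 with −0.65 without and −0.57 with CP775146. Gpi1 is overlapped over 11.5% of its exonic length by Gm26762 on the opposite strand, and counting did not use strand.

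**Figure D3:**
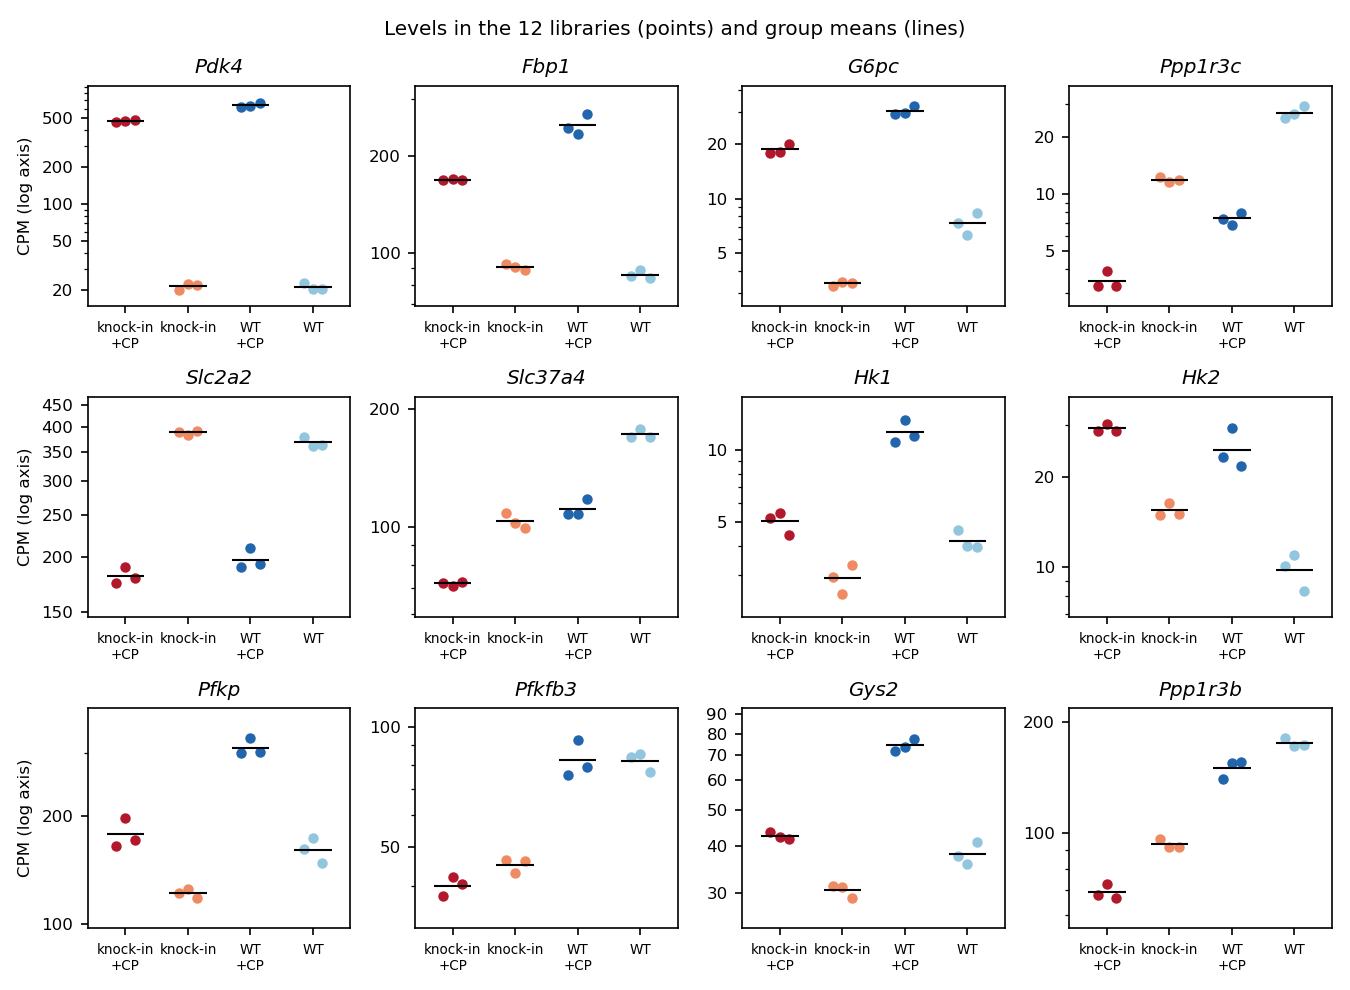
Level of 12 of the genes in each library (points, CPM on a log axis) with group means (lines), from left to right in treated knock-in, untreated knock-in, treated wild-type and untreated wild-type hepatocytes, 3 libraries each. Pdk4 and G6pc are high in both treated groups, Ppp1r3c and Slc2a2 are low in both, and Pfkfb3 and Ppp1r3b separate by genotype.

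In lower glycolysis 3 of 6 genes rose with CP775146 in knock-in and 4 of 6 in wild-type cells, none fell, and 4 of 6 were lower in the knock-in in each condition. Of all genes, 18.1% rose and 19.1% fell in knock-in cells, and 22.7% rose and 22.3% fell in wild-type cells. The share of all genes lower in the knock-in was 22.0% with CP775146 and 18.6% without. Eno1 gave 611, 647 and 639 CPM in treated and 494, 496 and 458 CPM in untreated knock-in libraries. Eno1 in wild-type libraries gave 795, 736 and 801 CPM with CP775146 and 547, 627 and 545 CPM untreated. Eno1, the common enolase, had the highest RPKM of these genes, rose with CP775146 by 0.39 in knock-in and 0.44 in wild-type cells, and was lower in the knock-in, with log2 differences of −0.25 without and −0.30 with CP775146. Eno3, the muscle-type enolase, averaged 5.78 ± 0.445 CPM in treated and 5.17 ± 0.261 CPM in untreated knock-in hepatocytes, and 9.45 ± 1.64 CPM in treated and 7.16 ± 0.287 CPM in untreated wild-type hepatocytes, and was 1.63-fold lower in the knock-in under CP775146 (log2 difference −0.71 ± 0.106, adjusted p = 2.37e-06). Pgam1, phosphoglycerate mutase, rose by 0.51 in knock-in and 0.81 in wild-type cells.

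Pklr, which encodes the liver pyruvate kinase, passed the test in none of the 5 contrasts. It averaged 157 ± 3.93 CPM in treated and 151 ± 4.08 CPM in untreated knock-in hepatocytes, and 163 ± 8.45 CPM in treated and 156 ± 2.69 CPM in untreated wild-type hepatocytes, and its 95% intervals were −0.03 to 0.13 for CP775146 in knock-in, −0.02 to 0.14 in wild-type cells, −0.13 to 0.02 for the knock-in with CP775146 and −0.12 to 0.03 without. The range over all 12 libraries was 146 to 172 CPM. Exons of Hcn3 on the opposite strand overlap 22.0% of its exonic length.

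Several genes of this stretch have processed copies in the genome, and featureCounts was run without the option that counts reads matching several places. Of all 50-base windows of their transcripts, 53.9% for Pgk1, 36.2% for Pgam1, 26.0% for Eno1 and 25.1% for Gapdh occur in other genes as well. Gapdh, commonly among the most abundant mRNAs, was listed at only 21.9 to 39.3 CPM, and its windows matched 223 other genes, 213 of them pseudogenes. Gapdh rose with CP775146 by 0.47 in knock-in and 0.40 in wild-type cells. These values, and those of Pgk1, Pgam1 and Eno1, are uncertain for that reason. So is the rank of Eno1 by RPKM among the lower glycolytic genes. Pgk1 was lower in untreated knock-in cells at an adjusted p of 0.0492, a call lost in 14 of 20 alternative analyses, with adjusted p-values of up to 0.162.

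Ldha, which encodes lactate dehydrogenase A, the enzyme that links pyruvate and lactate, had the highest RPKM of the 41 genes as counted. Genes with many copies, such as Gapdh, may rank too low on this scale. Ldha gave 1447, 1520 and 1516 CPM in treated and 1162, 1169 and 1110 CPM in untreated knock-in libraries. Ldha in wild-type libraries gave 1973, 1993 and 2135 CPM with CP775146 and 1428, 1530 and 1380 CPM untreated. Ldha rose with CP775146 by 0.38 ± 0.041, adjusted p = 7.52e-09 in knock-in and by 0.49 ± 0.041, adjusted p = 2.72e-11 in wild-type cells, and was 1.36-fold lower with and 1.26-fold lower without CP775146 in the knock-in. The groups did not overlap within any of those comparisons. Of the 2 subunits of the mitochondrial pyruvate carrier, Mpc2 rose with CP775146 by 0.27 in knock-in and 0.17 in wild-type cells, whereas Mpc1 passed that test in neither and was lower in the knock-in, with log2 differences of −0.29 without and −0.36 with CP775146. Mpc1 shares 26.3% of its windows with other genes.

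Of the 3 listed subunits of the pyruvate dehydrogenase complex, 2 were called higher with CP775146 in each genotype. The share of all genes called higher was 18.1% in knock-in and 22.7% in wild-type cells. The 2 called were Pdha1 and Dlat in knock-in cells, and Pdha1 and Pdhb in wild-type cells. The difference of responses between the genotypes was called for Pdha1 and not for Dlat or Pdhb. Pdha1 gave 211, 218 and 217 CPM in treated and 195, 201 and 198 CPM in untreated knock-in libraries. Pdha1 in wild-type libraries gave 204, 221 and 215 CPM with CP775146 and 169, 167 and 183 CPM untreated. Pdha1 encodes the E1 alpha subunit that the kinases phosphorylate; untreated wild-type libraries were the lowest, and the knock-in was higher in untreated cells (0.19 ± 0.040, adjusted p = 0.000249). With CP775146 the genotypes overlapped (log2 difference 0.01, 95% interval −0.07 to 0.09). Dlat gave 102, 99.97 and 103 CPM in treated and 95.4, 94.6 and 95.3 CPM in untreated knock-in libraries. Dlat in wild-type libraries gave 87.1, 89.8 and 93.9 CPM with CP775146 and 90.5, 90.8 and 88.6 CPM untreated. Dlat, the E2 subunit, rose in knock-in cells at an adjusted p of 0.0475, a call lost in 11 of 20 alternative analyses with adjusted p-values of up to 0.521. In wild-type cells its log2 difference was 0.00, and −0.09 with total counts in place of TMM (adjusted p = 0.0416). Pdhb, the E1 beta subunit, averaged 72.2 ± 0.375 CPM in treated and 69.7 ± 1.83 CPM in untreated knock-in hepatocytes, and 81.96 ± 2.23 CPM in treated and 73.9 ± 1.31 CPM in untreated wild-type hepatocytes. Exons of Map3k15 on the opposite strand overlap 16.2% of Pdha1.

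Among the kinases and phosphatases of the complex, 3 of 6 rose with CP775146 in knock-in and 4 of 6 in wild-type cells, and none fell. Of all genes, 18.1% rose and 19.1% fell in knock-in cells, and 22.7% rose and 22.3% fell in wild-type cells. Pdk4 had the largest log2 response of the 40 tested genes. Pdk4 gave 471, 475 and 483 CPM in treated and 20.3, 22.5 and 21.99 CPM in untreated knock-in libraries. Pdk4 in wild-type libraries gave 616, 632 and 669.7 CPM with CP775146 and 22.9, 20.6 and 20.4 CPM untreated. Every treated library stood above every untreated one, and the untreated genotypes overlapped. Pdk4 (ENSMUSG00000019577, chromosome 6, 5483351 to 5496309) encodes a kinase that switches off pyruvate dehydrogenase; it was 22.03-fold higher with CP775146 in knock-in cells (log2 difference 4.46 ± 0.050, adjusted p = 1.77e-32) and 29.99-fold higher in wild-type cells (log2 difference 4.91 ± 0.052, adjusted p = 2.83e-33). In each genotype this was the 22nd highest log2 difference of all 15664 genes. Under CP775146 the knock-in was 1.34-fold lower (log2 difference −0.42 ± 0.040, adjusted p = 5.67e-10), and in untreated cells the difference was 0.02 (95% interval −0.09 to 0.13).

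Pdk1, the kinase known as a hypoxia target, averaged 225 ± 14.5 CPM in treated and 135 ± 6.56 CPM in untreated knock-in hepatocytes, and 394 ± 21.8 CPM in treated and 225 ± 7.43 CPM in untreated wild-type hepatocytes. It was 1.67-fold higher with CP775146 in knock-in cells, 1.75-fold higher in wild-type cells, and lower in the knock-in without (−0.74 ± 0.048, adjusted p = 1.51e-12) and with CP775146 (−0.81 ± 0.047, adjusted p = 1.17e-13). Pdk2, the kinase widely expressed in liver, averaged 74.9 ± 1.39 CPM in treated and 80.7 ± 1.27 CPM in untreated knock-in hepatocytes, and 124 ± 9.38 CPM in treated and 123 ± 8.71 CPM in untreated wild-type hepatocytes, and was lower in the knock-in without (−0.60) and with CP775146 (−0.72). Its response to CP775146 did not pass the test, at −0.11 (95% interval −0.21 to −0.01) in knock-in and 0.01 (95% interval −0.09 to 0.11) in wild-type cells. Pdk3 gave 2.44, 2.79 and 2.34 CPM in treated and 1.956, 2.20 and 1.76 CPM in untreated knock-in libraries. Pdk3 in wild-type libraries gave 2.60, 3.20 and 3.79 CPM with CP775146 and 1.43, 1.58 and 1.04 CPM untreated. Pdk3 rested on 29 to 102 counts per library and rose with CP775146 in wild-type cells (1.24 ± 0.183, adjusted p = 1.89e-06); in knock-in cells the difference was 0.36 ± 0.167, adjusted p = 0.097. In untreated cells it was higher in the knock-in (0.55 ± 0.194, adjusted p = 0.0262), a call lost without untreated knock-in replicate 2 or without untreated wild-type replicate 3.

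Summed over Pdk1 to Pdk4, kinase transcripts reached 189 ± 3.48 RPKM in treated and 49.8 ± 0.989 RPKM in untreated knock-in cells, and 273 ± 12.5 RPKM in treated and 74.3 ± 3.59 RPKM in untreated wild-type cells (SD, n = 3 each). Pdk4 made up 70.9 to 72.4% of that sum in treated and 11.8 to 12.7% in untreated knock-in libraries, and 66.5 to 66.95% in treated and 7.57 to 8.69% in untreated wild-type libraries. The share of Pdk4 was thus higher in the knock-in in both conditions, by 5.01 percentage points with and 4.19 without CP775146, although under CP775146 its level was lower there. Each of the 4 comparisons of shares had groups that did not overlap and an exact two-sided permutation p of 0.1, the smallest this design allows.

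**Figure D4:**
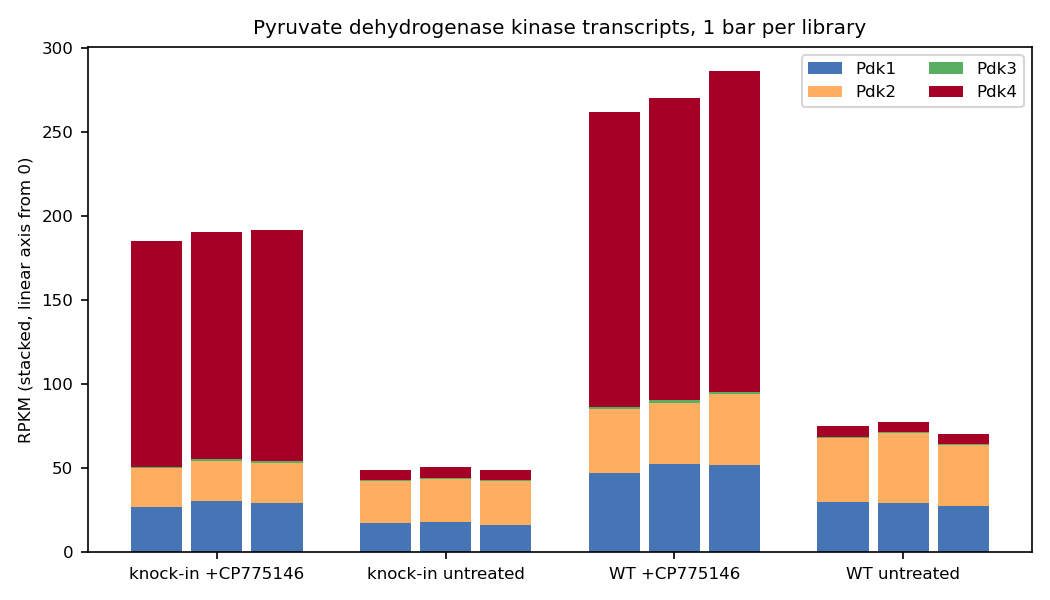
Stacked RPKM of Pdk1, Pdk2, Pdk3 and Pdk4 on a linear axis from 0, 1 bar per library, from left to right in treated knock-in, untreated knock-in, treated wild-type and untreated wild-type hepatocytes. The treated bars are mostly Pdk4 (dark red), at 134 to 138 RPKM in knock-in and 175 to 191 RPKM in wild-type libraries, and the untreated bars mostly Pdk1 and Pdk2.

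Of the opposing phosphatases, which reactivate the complex, Pdp2 rose with CP775146 and Pdp1 passed the test in neither genotype. Pdp2 gave 20.98 to 21.2 CPM in treated and 13.1 to 14.04 CPM in untreated knock-in libraries, and 22.3 to 24.2 CPM in treated and 12.9 to 13.1 CPM in untreated wild-type libraries, a log2 difference of 0.64 ± 0.059, adjusted p = 3.86e-10 in knock-in and 0.82 ± 0.062, adjusted p = 3.13e-12 in wild-type cells. Pdp1 gave 11.4, 10.7 and 11.03 CPM in treated and 11.99, 12.3 and 11.99 CPM in untreated knock-in libraries. Pdp1 in wild-type libraries gave 9.79, 10.7 and 10.1 CPM with CP775146 and 9.71, 9.88 and 9.60 CPM untreated. Pdp1 was higher in untreated knock-in than in untreated wild-type cells (0.31 ± 0.072, adjusted p = 0.000854), with no overlap. The summed phosphatase transcripts were 8.50 ± 0.0718 RPKM in treated and 6.56 ± 0.130 RPKM in untreated knock-in cells, and 8.86 ± 0.301 RPKM in treated and 5.89 ± 0.0454 RPKM in untreated wild-type cells.

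In gluconeogenesis the enzymes at the end of the pathway rose steeply with CP775146, the transporter that feeds the last of them fell, and the response of Pck1 passed the test in neither genotype. G6pc gave 17.9, 18.2 and 20.01 CPM in treated and 3.28, 3.48 and 3.44 CPM in untreated knock-in libraries. G6pc in wild-type libraries gave 29.4, 29.9 and 32.4 CPM with CP775146 and 7.36, 6.28 and 8.31 CPM untreated. G6pc (ENSMUSG00000078650, chromosome 11, 101367561 to 101377903) encodes the catalytic subunit that frees glucose from glucose-6-phosphate. It was 5.50-fold higher with CP775146 in knock-in cells (log2 difference 2.46 ± 0.090, adjusted p = 1.28e-19) and 4.17-fold higher in wild-type cells (log2 difference 2.06 ± 0.079, adjusted p = 2.72e-19), and all 4 groups were separate. The knock-in was 1.63-fold lower with CP775146 (log2 difference −0.71 ± 0.067, adjusted p = 6.44e-10) and 2.15-fold lower without (log2 difference −1.11 ± 0.107, adjusted p = 1.03e-09).

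Slc37a4 gave 72.2, 70.9 and 72.6 CPM in treated and 108, 102 and 99.7 CPM in untreated knock-in libraries. Slc37a4 in wild-type libraries gave 108, 108 and 118 CPM with CP775146 and 170.3, 179 and 170.1 CPM untreated. Slc37a4, the transporter that carries glucose-6-phosphate to the G6pc enzyme in the endoplasmic reticulum, went the other way with CP775146, 1.44-fold lower in knock-in cells (log2 difference −0.53 ± 0.043, adjusted p = 3.29e-11) and 1.55-fold lower in wild-type cells (log2 difference −0.63 ± 0.042, adjusted p = 1.81e-13). In the knock-in it was 1.55-fold lower with and 1.67-fold lower without CP775146. The pair therefore fell together in the knock-in and moved in opposite directions under the agonist.

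Fbp1 gave 168, 169 and 168 CPM in treated and 92.5, 90.99 and 88.9 CPM in untreated knock-in libraries. Fbp1 in wild-type libraries gave 243, 233 and 269 CPM with CP775146 and 85.2, 88.9 and 83.7 CPM untreated. Fbp1 (ENSMUSG00000069805, chromosome 13, 62864753 to 62888282), the liver fructose bisphosphatase, was 1.85-fold higher with CP775146 in knock-in cells (log2 difference 0.89 ± 0.044, adjusted p = 1.86e-16) and 2.89-fold higher in wild-type cells (log2 difference 1.53 ± 0.045, adjusted p = 2.32e-22). The untreated genotypes overlapped, and with CP775146 every knock-in library was below every wild-type library (log2 difference −0.56 ± 0.043, adjusted p = 4.93e-12). Fbp2, the muscle-type gene, lies next to Fbp1 on the same strand of chromosome 13, 6352 bases away (62836884 to 62858400), and averaged 124 ± 7.08 CPM in treated and 3.61 ± 0.256 CPM in untreated knock-in hepatocytes, and 167 ± 8.91 CPM in treated and 1.85 ± 0.157 CPM in untreated wild-type hepatocytes. The 6 muscle markers, led by Acta1, with Ckm and Myh7 at 0 in every library, summed to 23.7 to 24.8 CPM in treated and 13.7 to 16.6 CPM in untreated knock-in libraries, and to 69.2 to 79.8 CPM in treated and 39.0 to 46.7 CPM in untreated wild-type libraries. Nearly all of those sums was Acta1, the only 1 of the 6 with enough counts to be tested. Any part of muscle cells in the levels of the muscle-type genes Fbp2, Eno3, Aldoa and Hk2 was not tested. Fbp2 was 34.4-fold higher with CP775146 in knock-in and 90.2-fold higher in wild-type cells, and its share of the summed Fbp1 and Fbp2 RPKM was 47.2 to 49.9% in treated and 4.59 to 5.11% in untreated knock-in libraries, and 45.8 to 47.2% in treated and 2.58 to 2.85% in untreated wild-type libraries.

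Pck1, the cytosolic phosphoenolpyruvate carboxykinase and a classic fasting gene, averaged 6.56 ± 0.991 CPM in treated and 6.92 ± 0.713 CPM in untreated knock-in hepatocytes, and 9.51 ± 0.974 CPM in treated and 12.1 ± 3.47 CPM in untreated wild-type hepatocytes. It was lower in untreated knock-in cells (−0.81 ± 0.197, adjusted p = 0.00862), and with CP775146 the difference was −0.54 ± 0.203, adjusted p = 0.0587, which passed in 9 of 21 alternative analyses, among them the one with replicate number as a block (adjusted p = 0.0163). Pck2 gave 26.9, 24.8 and 24.5 CPM in treated and 18.4, 18.3 and 20.4 CPM in untreated knock-in libraries. Pck2 in wild-type libraries gave 21.6, 21.4 and 22.8 CPM with CP775146 and 20.1, 19.6 and 19.8 CPM untreated. Pck2, the mitochondrial isoenzyme, was highest in the treated knock-in libraries and rose with CP775146 in knock-in cells (0.41 ± 0.058, adjusted p = 1.11e-06), while the wild-type difference was 0.14 ± 0.061, adjusted p = 0.0551. Pcx, pyruvate carboxylase, the entry step from pyruvate, averaged 238 ± 4.72 CPM in treated and 212 ± 4.67 CPM in untreated knock-in hepatocytes, and 301 ± 6.88 CPM in treated and 258 ± 9.63 CPM in untreated wild-type hepatocytes, a rise of 0.17 in knock-in and 0.22 in wild-type cells.

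All 4 glycogen genes were lower in the knock-in, with and without CP775146, and the agonist raised the enzymes and lowered the scaffold genes. The share of all genes lower in the knock-in was 22.0% with CP775146 and 18.6% without. Ppp1r3c gave 3.27, 3.90 and 3.26 CPM in treated and 12.4, 11.5 and 11.9 CPM in untreated knock-in libraries. Ppp1r3c in wild-type libraries gave 7.42, 6.88 and 8.00 CPM with CP775146 and 25.3, 26.4 and 29.2 CPM untreated. Ppp1r3c encodes a glycogen-targeting subunit of protein phosphatase 1 that brings the phosphatase to glycogen synthase and phosphorylase. It was 3.44-fold lower with CP775146 in knock-in cells (log2 difference −1.78 ± 0.093, adjusted p = 8.65e-16) and 3.63-fold lower in wild-type cells (log2 difference −1.86 ± 0.078, adjusted p = 2.66e-18), and 2.13-fold lower with and 2.26-fold lower without CP775146 in the knock-in (log2 difference −1.18 ± 0.072, adjusted p = 4.95e-14 without). No groups overlapped.

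Ppp1r3b gave 67.9, 73.02 and 66.8 CPM in treated and 96.5, 91.7 and 92.01 CPM in untreated knock-in libraries. Ppp1r3b in wild-type libraries gave 140.5, 154 and 156 CPM with CP775146 and 181, 172 and 173 CPM untreated. Ppp1r3b, the liver glycogen-targeting subunit, was 2.17-fold lower in the knock-in with CP775146 (log2 difference −1.12 ± 0.045, adjusted p = 3.12e-18) and 1.88-fold lower without (log2 difference −0.91 ± 0.044, adjusted p = 2.42e-16), and it also fell with CP775146 (−0.43 in knock-in and −0.22 in wild-type cells). Gys2 gave 43.6, 42.3 and 41.8 CPM in treated and 31.2, 31.1 and 29.1 CPM in untreated knock-in libraries. Gys2 in wild-type libraries gave 71.98, 73.8 and 77.5 CPM with CP775146 and 37.6, 35.7 and 40.97 CPM untreated. Gys2, liver glycogen synthase, was 1.397-fold higher with CP775146 in knock-in cells and 1.95-fold higher in wild-type cells, and the treated wild-type libraries were above all others. Pygl gave 367, 381 and 378 CPM in treated and 313, 325 and 309 CPM in untreated knock-in libraries. Pygl in wild-type libraries gave 439, 472 and 476 CPM with CP775146 and 355, 354 and 363 CPM untreated. Pygl, liver glycogen phosphorylase, had the highest RPKM of the glycogen genes and rose by 0.25 in knock-in and 0.37 in wild-type cells. Its fall in untreated knock-in cells (−0.18 ± 0.038, adjusted p = 0.000283) did not pass with total counts in place of TMM (adjusted p = 0.083).

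Whether the genotypes differed in their response to CP775146 was tested as the difference of the 2 log2 responses, knock-in minus wild type. It passed for 12 of the 40 genes, 10 negative and 2 positive, where 4.33% of all genes were negative and 2.78% positive (7.11% in either direction), and the median over the 40 was −0.11 against −0.01 over all genes. With total counts in place of TMM the split was 6 negative and 3 positive, beside 519 and 663 of all genes. The call held in all alternative analyses for Hk1 (−0.73 ± 0.173, adjusted p = 0.00766), Fbp1 (−0.64 ± 0.062, adjusted p = 4.01e-08), Gys2 (−0.48 ± 0.072, adjusted p = 3.90e-05) and Pdk4 (−0.45 ± 0.070, adjusted p = 7.71e-05), whose rises were smaller in the knock-in, and for Khk (0.31 ± 0.054, adjusted p = 0.000365), whose fall was smaller. Of the 27 genes called in both genotypes, 20 had the smaller log2 response in the knock-in, a share near that of all genes, where it was 3100 of 4412 called in the same direction.

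The other 7 calls were Pdk3 (−0.88), Pfkp (−0.40), Ppp1r3b (−0.21), Slc2a2 (−0.20), Tpi1 (−0.19), Pdha1 (−0.18) and Pck2 (0.27), each lost in 5 to 13 of its 18 or 19 alternative analyses, with adjusted p-values of up to 0.175. In Ppp1r3b and Slc2a2 the negative value means a larger fall in the knock-in. G6pc, which had the larger log2 rise in the knock-in, missed the threshold (0.40 ± 0.127, adjusted p = 0.0532), and so did Hk2 (−0.43 ± 0.141, adjusted p = 0.0835). With replicate number as a block both passed (adjusted p = 0.035 for G6pc and 0.00867 for Hk2), as did Pgam1 (adjusted p = 0.0151), whereas Tpi1 (adjusted p = 0.0507) and Pck2 (adjusted p = 0.0546) did not. Leaving out 1 library at a time left 4 to 10 negative and 1 to 3 positive calls. The negative calls numbered 5 without treated knock-in replicate 1, 5 without treated knock-in replicate 3, 4 without untreated knock-in replicate 1 and 5 without untreated knock-in replicate 2. They numbered 6 without treated wild-type replicate 2 and 6 without treated wild-type replicate 3. The positive calls numbered 3 without treated wild-type replicate 3, 2 without untreated knock-in replicate 3 or untreated wild-type replicate 2, and 1 without any of the other 9 libraries. Of 7 tested macrophage markers 4 fell with CP775146 in knock-in and 2 in wild-type cells, and no difference of responses was called. The share of all genes that fell was 19.1% in knock-in and 22.3% in wild-type cells. Among 5 tested cholangiocyte markers 3 had a negative difference of responses, where 4.33% of all genes had one. The part of these cells in the results was not tested.

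Around the 41 genes, 112 further genes of hexose handling, glycolysis, gluconeogenesis, glycogen, pentose phosphate, fructose and galactose use, and glucose sensing were listed, of which 98 were tested. With CP775146, 46 rose, 24 fell and 28 were not called in knock-in cells, and the same numbers were found in wild-type cells. Over all genes 18.1% rose and 19.1% fell in knock-in cells, and 22.7% rose and 22.3% fell in wild-type cells, so the share that fell was near that of all genes. In the knock-in, 27 were higher and 40 lower with CP775146, where 20.5% of all genes were higher and 22.0% lower. Without CP775146, 25 were higher and 34 lower, where 18.4% of all genes were higher and 18.6% lower. The medians were 0.12 and 0.05 for CP775146 in knock-in and wild-type cells, and −0.06 for the knock-in in each condition.

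Txnip, which encodes a glucose-induced inhibitor of glucose uptake, averaged 241 ± 9.53 CPM in treated and 16.2 ± 1.73 CPM in untreated knock-in hepatocytes, and 414 ± 20.6 CPM in treated and 22.5 ± 1.46 CPM in untreated wild-type hepatocytes, 14.9-fold higher with CP775146 in knock-in and 18.4-fold higher in wild-type cells. Gk, glycerol kinase, which passes glycerol to gluconeogenesis, averaged 302 ± 11.6 CPM in treated and 102 ± 1.51 CPM in untreated knock-in hepatocytes, and 229 ± 8.56 CPM in treated and 56.2 ± 4.09 CPM in untreated wild-type hepatocytes. Slc16a1, a lactate and pyruvate transporter, averaged 262 ± 1.13 CPM in treated and 126 ± 0.360 CPM in untreated knock-in hepatocytes, and 318 ± 12.8 CPM in treated and 129.7 ± 3.05 CPM in untreated wild-type hepatocytes. All 3 rose with CP775146 in both genotypes, and in the knock-in under CP775146 Gk was higher (0.40) and Txnip and Slc16a1 lower (−0.78 and −0.28).

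Of the 9 tested genes of fructose, galactose and polyol use, 2 rose and 3 fell with CP775146 in knock-in cells, and 2 rose and 4 fell in wild-type cells; the 2 that rose are a share close to that of all genes (18.1% in knock-in and 22.7% in wild-type cells). Tkfc, which phosphorylates glyceraldehyde from fructose, averaged 624 ± 18.02 CPM in treated and 671 ± 17.2 CPM in untreated knock-in hepatocytes, and 399 ± 12.04 CPM in treated and 652 ± 11.5 CPM in untreated wild-type hepatocytes. It fell less in the knock-in, with a difference of responses of 0.60 ± 0.052, adjusted p = 5.34e-09, the direction also found for Khk. Galk1, galactokinase, rose by 0.60 in knock-in and 0.86 in wild-type cells. In the pentose phosphate pathway, G6pdx, its entry enzyme, rose by 0.57 in knock-in and 1.01 in wild-type cells, Pgd by 0.49 and 0.53, and Rpia was 2.40-fold higher in knock-in and 3.03-fold higher in wild-type cells.

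Of the genes that carry hormone and glucose signals, Gcgr, the glucagon receptor, averaged 37.03 ± 2.63 CPM in treated and 51.2 ± 0.734 CPM in untreated knock-in hepatocytes, and 28.5 ± 0.548 CPM in treated and 62.2 ± 3.17 CPM in untreated wild-type hepatocytes. Igfbp1, an insulin-repressed secreted protein, averaged 147 ± 8.72 CPM in treated and 335 ± 15.2 CPM in untreated knock-in hepatocytes, and 150.3 ± 3.50 CPM in treated and 339 ± 23.8 CPM in untreated wild-type hepatocytes. Both fell with CP775146 in each genotype. Among the glycogen genes outside the 41, Stbd1, which tethers glycogen to membranes, and Epm2a, the phosphatase laforin, were lower in the knock-in under CP775146 (−0.53 ± 0.036, adjusted p = 6.39e-13 and −1.22 ± 0.086, adjusted p = 1.10e-12), and Pgm1, phosphoglucomutase, was lower too (−0.53 ± 0.041, adjusted p = 5.50e-12). Srebf1, the regulator of fat synthesis genes, rose with CP775146 by 0.70 in knock-in and 0.75 in wild-type cells, and Me1, malic enzyme, by 0.76 in knock-in and 0.75 in wild-type cells. The mitochondrial carriers Slc25a10, for dicarboxylates, and Slc25a13, for aspartate and glutamate, went opposite ways in the knock-in under CP775146 (0.66 ± 0.049, adjusted p = 2.80e-12 and −0.97 ± 0.044, adjusted p = 7.99e-17). Slc16a7, a monocarboxylate transporter, fell with CP775146 (−0.68 in knock-in and −0.57 in wild-type cells), and Adpgk, a kinase that uses ADP, rose (0.38 in knock-in and 0.20 in wild-type cells).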

How the data were processed

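RNA was sequenced from 12 libraries of primary mouse hepatocytes, 3 in each of 4 groups, made with a TruSeq kit from total RNA. Each library has a deposited table of raw read counts, which the authors obtained with featureCounts 1.6.2 from exons grouped by gene, per the file headers, with no option given for strand or for multi-mapping reads. The submitters' processing notes name featureCounts 1.4.6-p4 instead, along with Subread, FastQC 0.11.2, cutadapt 1.9, edgeR 3.18.1, mm10 and Ensembl release 83. The 37 mitochondrial genes hold 0 counts. Of 46983 gene IDs, 46488 matched a symbol.

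After filterByExpr (at least 10 counts in enough libraries and 15 in all) 15664 genes were left. They were TMM-scaled and modelled in edgeR 4.0.16 (R 4.3.3) by robust quasi-likelihood with 1 term per group over all 12 libraries, and p-values were adjusted over all genes tested. The 95% intervals of log2 differences are normal intervals from the standard error. The model was also run on simulated counts with the same spread per gene in all groups, for CP775146 in wild-type cells only. That run cannot show how the model does where the spread differs between groups. Exonic lengths came from the files, promoters from RefSeq (GRCm38.p6) and shared 50-base windows from GENCODE transcripts. Shares were compared by exact permutation. The count limit covers counting error only. As alternatives, scaling by RLE or by total counts, limma 3.58.1 (voom with sample weights), DESeq2 1.42.0, 2 other filters, fits to only the groups compared, replicate blocks and the omission of each library were run.

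No pair of replicates was a duplicate: the mean chi-square per gene was 1.70 to 3.12 in knock-in and 3.86 to 6.79 in wild-type pairs, above sampling noise. The spread between libraries beyond counting error was 2.63% in treated and 2.59% in untreated knock-in cells. It was 5.33% in treated and 5.10% in untreated wild-type cells, while the model used 1 shared spread per gene. Same-numbered treated knock-in and treated wild-type libraries deviated from their group means together (r of 0.15, 0.134 and 0.147). Libraries of unlike number reached 0.258, untreated wild-type replicate 1 with treated wild-type replicate 2. These correlations therefore cannot show whether the numbers pair libraries, and the labels do not say so. The main model used no replicate block. In the other comparisons the correlations did not all pass 0.1.

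The 41 members and the further lists were chosen with earlier results of these data known. Genes given in every library are those whose response differed between genotypes, the 4 largest called rises and falls of each comparison, and the most abundant per length of each functional group. Of the further lists, up to 3 genes each with the smallest adjusted p over the 5 contrasts and a mean of at least 1 CPM are named, except that some of these are not reported here.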

Additional observations from a re-analysis of the deposited data

Results flagged for a closer look

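For 12 of the 40 genes the response to CP775146 differed between knock-in and wild-type hepatocytes by edgeR's test of the difference itself. Of all genes, 7.11% passed that test in either direction. The calls of Hk1, Fbp1, Gys2, Pdk4 and Khk held in all alternative analyses, and each of the others was lost in several. With total counts in place of TMM there were 6 negative and 3 positive calls. The log2 difference of responses, knock-in minus wild type, was −0.88 for Pdk3, −0.73 for Hk1, −0.64 for Fbp1, −0.48 for Gys2, −0.45 for Pdk4 and −0.40 for Pfkp, all genes with a larger log2 rise in wild-type cells. It was −0.19 for Tpi1 and −0.18 for Pdha1, which rose more in wild-type cells, and −0.21 for Ppp1r3b and −0.20 for Slc2a2, which fell more in the knock-in. It was 0.31 for Khk, which fell less in the knock-in, and 0.27 for Pck2, which rose in the knock-in and did not pass the test in wild-type cells. Khk and Fbp1 had adjusted p-values of 0.000365 and 4.01e-08, and those of Tpi1, Pdha1 and Pck2 lay just under the threshold at 0.0484, 0.0464 and 0.0497.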

How the results depend on the processing

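Of 200 gene-by-contrast results over the 40 tested genes, 134 passed the test. Over 3995 alternative values, 3812 kept direction and side of the threshold, 119 lost the call, 62 gained one and 2 turned direction, both with total counts in place of TMM: Dlat for CP775146 in wild-type cells (−0.0947) and Slc2a2 for the knock-in with CP775146 (0.0116). With that scaling, genes of the list higher in untreated knock-in cells numbered 10, and those with a negative difference of responses 6. All genes called higher and lower were then 5024 and 1722 for the untreated knock-in, 5950 and 1867 for the knock-in with CP775146, and 2358 and 5338 for CP775146 in wild-type cells, and 663 had a positive difference of responses. DESeq2 left 1 gene of the list with a positive difference of responses. Leaving out 1 library at a time gave 1 to 3 positive and 4 to 10 negative differences of responses in the list, and 251 to 638 positive over all genes. It also gave a Pdk4 share difference of 3.88 to 4.49 points for the untreated knock-in, 4.65 to 5.39 with CP775146, 58.2 to 58.8 for CP775146 in wild-type and 59.0 to 59.7 in knock-in cells. Computed from counts in place of RPKM, these differences were 3.28, 6.08, 49.4 and 52.2 points. The causes were not tested.

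With replicate number as a block over all libraries, 5 genes of the list were higher and 28 lower in the knock-in with CP775146, where Pck1 gained a call. With the replicate block and only those groups, an alternative added after the data were seen, 5 were higher and 29 lower, with Pgk1 and Pck1 gained. Among untreated libraries the block gave 5 higher and 25 lower, for CP775146 24 and 6 in wild-type and 23 and 7 in knock-in cells, and for the difference of responses 2 and 11. The block also gained calls of Pfkfb3 for CP775146 in knock-in cells and of Hk2, Pgam1 and G6pc for the difference of responses, and lost those of Dlat, Tpi1 and Pck2. The widest standard errors were those of Pck1, Pdk3 and Pgk1, and sequence copies limit Gapdh, Pgk1, Pgam1 and Eno1.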
